A study of Mus musculus with 5 samples.

Results

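The members are the 50 array probe sets for immunoglobulin light chains, heavy chain variable regions and the J chain, out of 12488 probe sets on the array. They were taken by symbol: any symbol starting Igk, Iglc, Iglv, Iglj, Igll, Ighv or Igh-V, or equal to Jchain or Igj, alone or beside other symbols. This found 52 probe sets, and 2 that also list a heavy chain constant gene (Igha, Ighm, Ighd or Ighg3) were left out. Of the 50, 36 are for kappa genes, 5 of them listing the constant gene Igkc, 2 are for lambda genes, 2 for Igll1, 9 for heavy chain variable genes and 1 for Jchain. Single genes are named for 40 of them and several genes for 10. A probe set with several genes is called here by its identifier, because its signal cannot be assigned to 1 of its genes. Where a single gene is named, that is the annotation's assignment. Whether such a probe set also reads related segments was not tested.

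An antibody is built from heavy chains and light chains, and a B cell normally keeps to 1 light chain isotype, kappa or lambda. Each light chain joins a variable region, chosen from many gene segments by V(D)J recombination, to a constant region of its isotype. A clonal line is therefore expected to use few of the many segments. The J chain links the units of secreted IgM and dimeric IgA, and the surrogate light chain, which Igll1 partly encodes, stands in for the light chain in precursor B cells.

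The study measured polyadenylated RNA of 5 mouse cultures, each on 1 Affymetrix array. AxJ is labelled as a plasma cell line, and 4 stably transfected derivatives were used: one carrying empty vector, one overexpressing the RNA-binding protein hnRNP-H, and subclones B5 and D6 overexpressing its relative hnRNP-F. A20 is labelled as a memory B cell line, and as background it is known to carry surface IgG with kappa chains. The submitters chose the overexpressing lines by western blot and report a lower secreted to membrane heavy chain ratio in the hnRNP-F clones, so each AxJ array is 1 selected line. The AxJ lines grew in medium with the selection drug G418 and A20 without it, which cannot be told apart from the difference between the lines.

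Values are deposited linear intensities. All differences were taken after adding 6.53 to the intensity and converting to log2, which understates changes of dim probe sets, and probe sets under 21.8 on every array were not tested. RNA integrity or labelling also varied: the 5' signal of Gapdh over its 3' signal was low for B5 (0.181) and empty vector (0.212), higher for D6 (0.683) and hnRNP-H (0.866), and 0.384 for A20. The labels were checked against markers: of 6 measured B cell markers 4 were higher in A20 than in the AxJ controls by the limma test used throughout and none was lower, and of 6 plasma cell markers 3 were lower, with Jchain, itself a member, among them. Sdc1, which encodes the plasma cell marker CD138, read 26.2 in A20, 21.9 in B5, 45.2 in D6, 44.8 in hnRNP-H and 40.7 in empty vector on 161370_f_at. Its other probe set, 96033_at, read 2.55, 37.3, 98.5, 57.3 and 21.7 in the same order, and neither passed in A20 (differences -0.59 and -2.23, the second with a limma adjusted p of 0.0937).

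Most members were dim on all arrays. Only 4 of the 50 reached 200 on any array, and the same number reached 1000: 93086_at, a kappa probe set with Igkc among its genes, 102156_f_at for Igkv6-23, 93638_s_at for Iglc1 and Iglv1, and 102372_at for Jchain. A further 5 lay between 100 and 200 on at least 1 array. The other 46 had medians of 15.1 in A20, 23.3 in B5, 21.6 in D6, 23.1 in hnRNP-H and 30.7 in empty vector, and none exceeded 179. On every array some of these 46 lay below 21.8, from 18 in empty vector to 27 in A20. The filter kept 39 members and left out 8 kappa and 3 heavy variable probe sets, which stayed under 21.8 on all 5 arrays. Of the 39, 7 exceeded 21.8 on 1 array alone, 5 of them on empty vector and 2 on B5. Such members had to be high on that array to be kept, so counts of members high there are partly set by the filter.

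**Figure D1:**
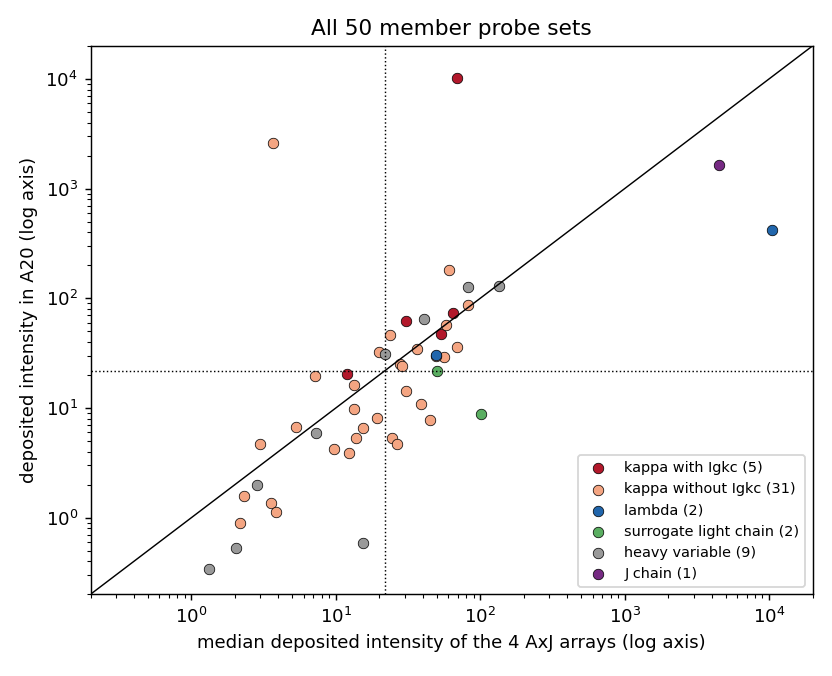
Each of the 50 members is a point, with the median deposited intensity of the 4 AxJ arrays on the horizontal log axis and the A20 intensity on the vertical log axis, coloured by role; the diagonal marks equal values and the dotted lines the filter of 21.8. The 2 kappa points (93086_at at 10252 and 102156_f_at at 2593 in A20) lie far above the diagonal, and the lambda probe set 93638_s_at (418 in A20) lies far below it.

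The question of the A20 comparison was which of these transcripts differ between the B cell line and the plasma cell line. In A20 the 2 kappa probe sets rose and the probe sets for lambda (93638_s_at), the J chain and the surrogate light chain (99429_at) fell. Of the 39 members tested, 2 were higher and 3 lower than in the control lines, those with hnRNP-H and with empty vector. Over all 9205 probe sets tested, 3.39% were higher and 3.38% lower, so 2 and 3 of 39 lie close to that background, which gives no result about the members as a group. An unadjusted p under 0.05 was seen for 8 of the 39 and for 20.2% of all probe sets. A20 was at least 2-fold above all 4 AxJ arrays for 2 members and at least 2-fold below for 5, against 5.06% and 5.5% of all probe sets. The median log2 difference of the 39 was -0.39, against -0.14 over all probe sets. Below 0 lay 25 of the 39, and 5285 of all 9205 probe sets. A20 was below all 4 AxJ arrays for 11 members, where it was for 33.7% of all probe sets. Of these 11, 8 were kept through AxJ arrays alone, so these counts give no support for a fall of the members.

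For the kappa constant gene the values come from 93086_at, which is listed for Igkv6-23, Igkv4-53, Igkv8-30, the joining segment Igkj1 and Igkc. It read 10252 in A20, 249 in B5, 50.2 in D6, 36.1 in hnRNP-H and 86.9 in empty vector. A20 lay 41.2 times above B5, the highest of the AxJ arrays, and the groups did not overlap. The log2 difference was 7.35 (SE 0.74, A20 n = 1 against 2 controls, limma adjusted p = 0.000199). Empty vector and B5, the arrays of low Gapdh ratio, were both above hnRNP-H and D6. With that class of ratio as a covariate, and A20 (0.384) put in the low class, the A20 difference was 6.52. Its SE of 0.42 rests on 1 residual degree of freedom and the prior.

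Not every probe set that lists Igkc followed it. The 4 others, all of which also list Igkv4 segments, ranged from 20.4 to 73.6 in A20 and from 9.42 to 107 across the AxJ arrays. Probe set 102585_f_at read 73.6 in A20, 65.6 in B5, 30.2 in D6, 62.9 in hnRNP-H and 84.5 in empty vector, a log2 difference of 0.01 (SE 0.52). Their log2 differences in A20 lay between -0.57 and 0.90, and none passed (limma adjusted p from 0.560 to 0.994). Listing the constant gene in the annotation therefore did not predict which probe sets were bright in A20, and their sequences were not matched to the constant or variable part here.

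Among probe sets listed for a single kappa variable gene, the one with a high value was that of Igkv6-23. This gene is also among those of 93086_at. Its probe set 102156_f_at read 2593 in A20, 227 in B5, 2.05 in D6, 1.45 in hnRNP-H and 5.25 in empty vector. A20 and B5 were far above the other 3 arrays, all of which were under the 6.53 added before taking logs. The log2 difference of A20 from the controls was 8.07 (limma adjusted p = 0.00533, SE 1.35), and its size depends on that added constant. Without empty vector the difference was 8.35. The call was lost there and without the intensity trend (limma adjusted p = 0.103). All alternatives ran from 3.61e-14 to 0.103, the lowest being the fit with the class of Gapdh ratio as a covariate.

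The other kappa variable genes stayed low in A20. On the kappa locus, the member genes next to Igkv6-23 in the reference order are Igkv8-30 on one side and Igkv8-19, then Igkv6-14, on the other. The brighter Igkv8-30 probe set (96963_s_at) read 56.8 in A20, 60.7 in B5, 56.0 in D6, 44.4 in hnRNP-H and 64.0 in empty vector. Its A20 value lay inside the AxJ range. Igkv8-19 read 9.86 in A20, 7.87 in B5, 12.5 in D6, 14.1 in hnRNP-H and 40.6 in empty vector. Igkv6-14, of the same family as Igkv6-23, read 32.05 in A20, 20.3 in B5, 19.4 in D6, 24.9 in hnRNP-H and 6.89 in empty vector (probe set 97569_at). Its other probe set, 101331_f_at, was too dim to be tested and read 0.89 in A20 and from 1.44 to 2.91 across the AxJ arrays. The A20 differences of Igkv8-19 and of 97569_at from the controls did not pass (limma adjusted p = 0.601 and 0.570).

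Without 93086_at and 102156_f_at, 34 kappa probe sets remained, of which 26 were tested and none passed in the fit used here. Their log2 differences ranged from -1.88 to 1.72 with a median of -0.36. A20 lay above all 4 AxJ arrays for 3 of them and below for 6, where 23.5% and 33.7% of all probe sets did. The highest was 96975_at, listed for the locus symbol Igk and Igkv1-117, with 179 in A20, 87.2 in B5, 56.3 in D6, 37.7 in hnRNP-H and 64.8 in empty vector (log2 difference 1.72, SE 0.48, limma adjusted p = 0.0575). The lowest was 100682_f_at for Igkv14-111, with 7.69 in A20, 54.1 in B5, 33.7 in D6, 35.5 in hnRNP-H and 59.0 in empty vector (log2 difference -1.88, SE 0.59, adjusted p = 0.0841). These 2 were singled out after their values were seen, and both lie near the threshold. Probe set 96975_at passed under 3 of 12 alternatives (adjusted p from 0.0392 to 0.170 over all 12) and 100682_f_at under 2 (from 0.0123 to 0.226). A second tested Igkv14-111 probe set differed by 0.22, so the probe sets of that gene did not move together.

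The brighter lambda probe set ran the other way, and the lambda members list only Iglc1 and Iglv1. Probe set 93638_s_at, listed for the constant gene Iglc1 and the variable gene Iglv1, read 418 in A20, 11790 in B5, 9929 in D6, 8072 in hnRNP-H and 11013 in empty vector. The 4 AxJ arrays lay within 1.46-fold of each other, and the lowest was 19.3 times the A20 value. It fell by 4.47 on the log2 scale (limma adjusted p = 0.000125, SE 0.41). The second lambda probe set, 93639_r_at for Iglc1 alone, was dim and read 30.3 in A20, 19.4 in B5, 36.4 in D6, 62.8 in hnRNP-H and 67.4 in empty vector. Its A20 value lay within the AxJ range and its difference of -0.96 (SE 0.54) did not pass (adjusted p = 0.373).

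**Figure D2:**
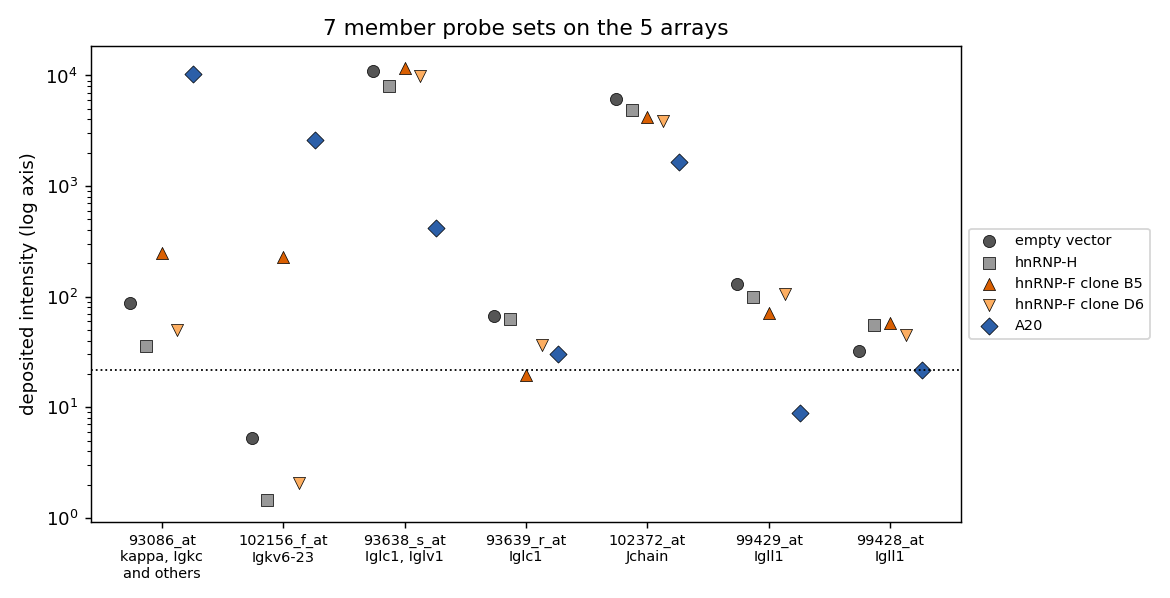
Deposited intensity on a log axis for 7 probe sets, with 1 symbol per array and the filter of 21.8 as a dotted line; no bars are shown because each line has 1 array. A20 is highest for 93086_at (10252) and 102156_f_at (2593) and lowest for 93638_s_at (418), Jchain (1636) and both Igll1 probe sets, and B5 is the second highest for both kappa probe sets (249 and 227).

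Jchain, which encodes the joining chain of polymeric antibody, was lower in A20 but still read over 1000. Its values were 1636 in A20, 4193 in B5, 3901 in D6, 4830 in hnRNP-H and 6085 in empty vector. The AxJ lines lay within 1.56-fold of each other, and A20 was below all of them, the lowest AxJ value being 2.39 times that of A20. It fell by 1.72 on the log2 scale (limma adjusted p = 0.0224, SE 0.38). That call was lost without empty vector (adjusted p = 0.0602), without B5 (0.119), without D6 (0.100), without the filter (0.0763) and without the intensity trend (0.120), while the difference stayed between -1.89 and -1.50.

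Igll1, the lambda5 part of the surrogate light chain, had 2 probe sets that both read lowest in A20. Probe set 99429_at read 8.81 in A20, 71.2 in B5, 105 in D6, 98.3 in hnRNP-H and 130 in empty vector. The A20 value lay under 21.8 and all 4 AxJ values above it. The log2 difference of A20 from the controls was -2.97 (limma adjusted p = 0.00376, SE 0.46), and its size depends on the added constant, running from -3.54 to -1.83 over the alternatives. The dimmer 99428_at read 21.7 in A20, 58.0 in B5, 44.8 in D6, 55.7 in hnRNP-H and 32.5 in empty vector. Its difference of -0.80 (SE 0.54) did not pass (adjusted p = 0.472), so the fall of Igll1 rests on 1 of its 2 probe sets.

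Jchain and Igll1 were the only 2 of 32 member genes with an upstream sequence in the RefSeq table used here. Because both had a probe set that fell in A20, their 250 bases before the annotated start are shown, in lower case with any match to 1 of 2 motifs in capitals. The motifs were the immunoglobulin octamer, searched as ATGCAAAT and its reverse complement ATTTGCAT, and the TATA box, searched as TATAAA on the gene strand. Both sequences are from GRCm38.p6, minus strand, at chr5:88527898-88528147 for Jchain and chr16:16863986-16864235 for Igll1.
Jchain: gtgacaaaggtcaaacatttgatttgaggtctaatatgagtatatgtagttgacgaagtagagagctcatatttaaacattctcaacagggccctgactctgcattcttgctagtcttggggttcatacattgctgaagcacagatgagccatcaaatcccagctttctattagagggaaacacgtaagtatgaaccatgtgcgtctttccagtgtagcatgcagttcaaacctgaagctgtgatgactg
Igll1: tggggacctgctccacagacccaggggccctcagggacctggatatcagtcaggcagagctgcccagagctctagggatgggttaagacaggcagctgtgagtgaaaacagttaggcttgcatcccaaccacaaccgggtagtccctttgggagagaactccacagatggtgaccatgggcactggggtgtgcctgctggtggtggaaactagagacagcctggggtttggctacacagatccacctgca
Neither window held a match, so no base is in capitals. Of 32851 such windows in the table, 1.6% held the octamer and 7.59% the TATA letters. The motif letters are absent from these windows, which says nothing of the factors that bind elsewhere.

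Heavy chain variable probe sets stayed dim in all lines. Of 9, 6 were tested and none passed in A20, with log2 differences from -1.19 to 0.89 and a median of 0.16. Ighv5-12 read 129 in A20, 111 in B5, 126 in D6, 145 in hnRNP-H and 170 in empty vector. Its A20 value lay inside the AxJ range. Igh-VS107 (102152_f_at), a symbol that had no current equivalent here, read 127 in A20, 55.3 in B5, 103 in D6, 81.9 in hnRNP-H and 82.8 in empty vector, a difference of 0.59 (limma adjusted p = 0.541, SE 0.46). Another Igh-VS107 probe set differed by -1.19, and for the 3 probe sets of Ighv14-2 no value exceeded 22.3. No heavy variable member exceeded 170 on any array.

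**Figure D3:**
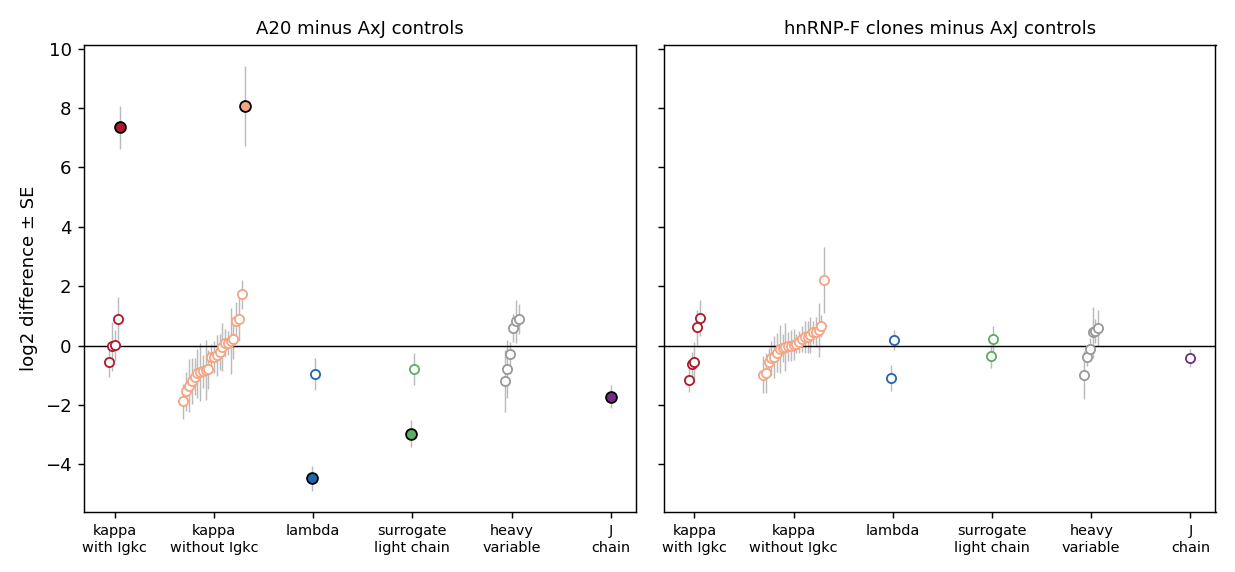
Log2 differences with SE for the 39 tested members by role, A20 minus the AxJ controls on the left and hnRNP-F clones minus the AxJ controls on the right; filled points passed a limma adjusted p of 0.05. On the left 5 points are filled, 2 kappa points above 0 and 1 each of lambda, surrogate light chain and J chain below 0, and on the right none is filled.

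In the hnRNP-F clones the question was whether these transcripts change with hnRNP-F. None of the 39 members passed in either direction (limma), and 2 had an unadjusted p under 0.05, 93639_r_at for Iglc1 and 101640_f_at for Igkv4 segments and Igkc. Over all probe sets 0.0109% were called higher and 0% lower, and 5.62% had an unadjusted p under 0.05. The median log2 difference of the 39 was 0.00040, beside -0.0014 over all probe sets. Below 0 lay 19 of the 39, and 4618 of all 9205 probe sets. Both clones lay above both controls for 2 members and below for 8, against 17.6% and 18.9% of all probe sets, and 3 of the 8 were kept through the control arrays alone. These comparisons share the control arrays with the A20 comparison. In a simulation this comparison recovered only 14% of 2-fold changes, so the absence of calls does not exclude changes of that size. Larger changes can be missed too, because the simulation held 200 changed probe sets and the data gave 1 call.

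No lambda, J chain or Igll1 probe set passed. For 93638_s_at the clones at 11790 and 9929 overlapped the controls at 11013 and 8072, a log2 difference of 0.20 (limma adjusted p = 0.941, SE 0.34). Jchain in the clones, at 4193 and 3901, lay below the controls at 6085 and 4830, a difference of -0.42 (SE 0.31, adjusted p = 0.858). The dim lambda probe set 93639_r_at had both clones below both controls, with a difference of -1.10 (SE 0.44, adjusted p = 0.836). Igll1 (99429_at) differed by -0.36 (SE 0.38, adjusted p = 0.883), with D6 inside the range of the controls.

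The clones parted from each other in kappa. Igkv6-23 differed by 2.21 between clones and controls (limma adjusted p = 0.836, SE 1.11), but B5 read 227 and D6 read 2.05. For 93086_at the difference was 0.93 (SE 0.60, adjusted p = 0.842), with 249 in B5 and 50.2 in D6. Without B5 these differences were -0.18 and -0.15, and without D6 they were 4.59 and 2.02, so both rest on 1 clone. Without D6 the Igkv6-23 difference passed (adjusted p = 0.0116), which describes B5 alone.

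Some members were high in B5 among the AxJ lines. B5 was at least 2-fold above all 3 others for 4 of 39 members, all of them kappa: 102156_f_at, 93086_at, 97567_f_at and 99369_f_at. The last was kept by the filter through B5 alone, so it had to be high there, and 3 remain without it. Over all probe sets 1.73% met that rule. For Igkv1-135 it was at least 2-fold below the other 3, as for 1.44% of all probe sets. Probe set 97567_f_at, for Igkv4 segments and Igkc, read 62.3 in A20, 107 in B5, 21.8 in D6, 28.6 in hnRNP-H and 32.3 in empty vector, so it was higher in B5 than in A20. Igkv10-96 (99369_f_at) read 6.66 in A20, 24.5 in B5, 2.53 in D6, 6.77 in hnRNP-H and 3.89 in empty vector. The first 2 probe sets were high in A20 as well, the other 2 were not, with B5 at 8.75% of the A20 value for Igkv6-23 and 2.43% for 93086_at.

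Markers of other cells were set beside the B5 values. The summed intensity of 6 B cell markers was 4360 in A20, 1058 in B5, 1272 in D6, 1018 in hnRNP-H and 830 in empty vector. B5 lay above the other AxJ lines for 3 of the 6. Cd79a read 62.2 in B5 and at most 33.2 in the other AxJ lines, and Pax5 read 56.3 and at most 48.8. Cd22 read 13.1 and at most 8.60, all under 21.8. In A20 these read 166, 213 and 362. Ms4a1, which encodes CD20, read 115 in B5, 117 in empty vector and 2212 in A20. The sum of 12 myeloid markers was 568 in B5 against 377 to 478 in the other AxJ lines, and B5 was highest among AxJ lines for 5 of the 12. Cd14, the brightest of the 12 in B5, read 241 there, 132 in D6, 104 in hnRNP-H, 109 in empty vector and 83.5 in A20. Lyz2 read 47.5 in B5 and at most 5.16 elsewhere, while Mpo read 2.97 in B5 and from 13.6 to 24.1 elsewhere. Of 11 T cell markers 8 were highest in B5 among AxJ lines, Cd4 reaching 65.3 and the other 7 staying under 21.8. The share of all probe sets that were highest in B5 was not counted, so nothing is read from these counts of markers. The part of other cells in the kappa values was not tested. Empty vector was at least 2-fold above the other 3 AxJ lines for 3 members (Igkv8-19, Igkv2-112 and 97566_f_at), where 3.01% of all probe sets met the rule, but all 3 were kept by the filter through empty vector alone, so nothing is read from that count.

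For pairs of single arrays there is no replicate and no test. Between hnRNP-H and empty vector, 4 of 39 members were higher in hnRNP-H by 2-fold or more and 6 were lower by as much, against 8.22% and 11.1% of all probe sets. The brighter side reached at most 86.9 in these 10, and 4 of the 6 lower ones were kept by the filter through empty vector alone. Lower in hnRNP-H were Igkv2-112 (38.0 in empty vector, 4.43 in hnRNP-H) and 5 other kappa probe sets, and higher were Igh-VS107 (98776_at, 2.74 and 22.0), Ighv1-54, Igkv6-14 and Igkv14-111. The bright 93638_s_at and Jchain differed by -0.45 and -0.33.

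Between D6 and B5, 2 members were higher in D6 by 2-fold or more and 5 were lower by as much, against 5.64% and 6.16% of all probe sets. All 7 were kappa probe sets, and 2 of the 5 lower ones were kept through B5 alone. The brighter side reached 200 only for 102156_f_at and 93086_at. Their differences were -4.77 and -2.17. Jchain differed by -0.10 and 93638_s_at by -0.25, so the clones lay close together in these bright probe sets. The dim lambda probe set 93639_r_at differed by 0.73, with 19.4 in B5 and 36.4 in D6. For 93086_at, hnRNP-H was also 2-fold below empty vector, the same split as the Gapdh ratio, and it was the 1 member with both; 1.43% of all probe sets had both.

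**Figure D4:**
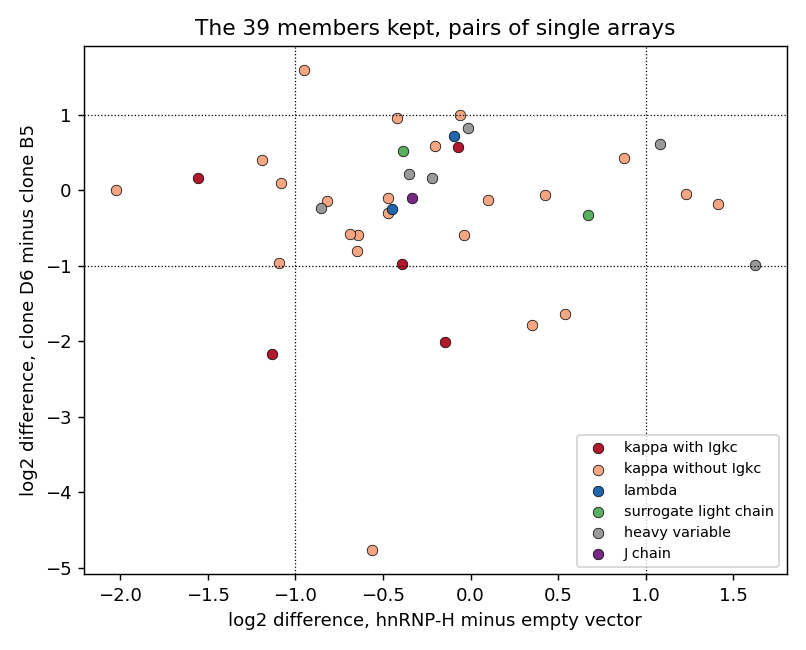
Log2 differences of single arrays for the 39 members, hnRNP-H minus empty vector on the horizontal axis and D6 minus B5 on the vertical axis, with 2-fold marked by dotted lines. Igkv6-23 lies lowest at -4.77 between the clones while it differed by -0.56 between the controls, and the lambda, J chain and surrogate chain points lie within 2-fold on both axes.

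Genes that act with the light chain were read from fixed lists, each gene by its probe set with the highest mean log2 value. Among 19 tested regulators of light chain transcription 7 rose and 2 fell in A20 (median 0.84), beside 3.39% and 3.38% of all probe sets (median -0.14). Spib, an Ets factor of B cells, differed by 5.92 (adjusted p = 8.12e-05), but its other probe set by 1.09 (adjusted p = 0.461). Id2, an inhibitor of E proteins, rose by 4.59 and Ebf1, a B lineage factor, by 3.84. Prdm1 (Blimp-1) fell by 3.87. Irf4, which acts with Ets factors at light chain enhancers, and Pou2af1 were added for their roles. Irf4 fell by 1.86. Pou2af1, the coactivator at the octamer motif, read 1167 in A20, 421 in B5, 362 in D6, 445 in hnRNP-H and 602 in empty vector, and did not pass (difference 1.16, adjusted p = 0.0781).

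Of 19 tested genes for folding, assembly and transport of antibody 7 fell in A20 and none rose (median -1.31), beside 3.38% lower and 3.39% higher over all probe sets. The log2 differences were -6.37 for Fkbp11, -3.06 for Hsp90b1, -2.67 for Pdia4 and -2.26 for Hspa5 (BiP, which holds unassembled chains in the endoplasmic reticulum). Of 7 receptor partners and surrogate chain genes Cd79a rose by 2.80 and Igll1 fell, while Vpreb1, the other surrogate chain part, added for its role, differed by 0.08. None of the 7 tested recombination and end joining genes passed, with Xrcc6 at 1.26 (adjusted p = 0.0595) and Rag1 at -0.41 (adjusted p = 0.652), and of 8 class switch and mutation genes Rpa1 rose by 2.40 and Trp53bp1 by 1.87.

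Of 4 heavy chain constant genes Igha and Ighm fell in A20, with differences of -7.18 and -6.81, though 1 of 2 other Igha probe sets and all 8 other Ighm probe sets tested did not pass. No list gene passed in the hnRNP-F clones. The 3 T cell and 8 myeloid markers tested had no call in A20, with medians of -0.51 and -0.43.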

How the data were processed

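Per the labels' protocols, polyadenylated RNA was biotin labelled and put on Affymetrix arrays, 1 for each of 5 cultures. The deposited table gives 1 linear intensity per probe set, which the authors had scaled, by the values, to a trimmed mean of about 150 on each array. The array software and the background step are not named in these sources, and detection calls were not used here. The number of arrays limits the precision.

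Symbols came from the array annotation, updated through gene identifiers: 10855 probe sets had 1 symbol, 396 several and 1237 none. The 66 control probe sets were left out.

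Differences of log2(intensity + 6.53, the 20th percentile) were fitted by lmFit and eBayes with an intensity trend (limma 3.58.1, R 4.3.3) over all 5 arrays with coefficients for hnRNP-F clones, AxJ controls and A20. The filter was the 40th percentile, 21.8, and p-values were two-sided and Benjamini-Hochberg adjusted over 9205 probe sets (threshold 0.05). The authors' scaling was kept because 4 members (1000 or more) are among the brightest probe sets, whose values quantile normalisation ties across arrays. Most other members were dim. There were 2 residual degrees of freedom, with a prior of 8.72, and A20 is assumed to vary like AxJ. The spread behind the p-values is that between empty vector and hnRNP-H and between B5 and D6. These are different lines, so differences of transfection, clone, RNA and array cannot be told apart in it. No line has more than 1 array, so no p-value measures the variation between replicates of a line. In a simulation with known changes, the hnRNP-F comparison recovered 14% of 2-fold, 70% of 4-fold and 94% of 8-fold changes. The A20 comparison recovered 4%, 54% and 82% of them. False calls were 13 of 151 for hnRNP-F and 8 of 127 for A20. The simulation changed 200 probe sets in normal noise, while the data gave 1 call for hnRNP-F. The adjustment is stricter when fewer probe sets change, so the hnRNP-F shares may be too high for these data. Most 2-fold changes were missed, so a member that did not pass is not shown to be unchanged. Members and lists were chosen with earlier results of these data known. Named with values on all arrays were members past the threshold, members of 1000 or more, members 2-fold apart between single arrays with 200 or more, and all J chain, Igll1 and lambda probe sets. Other members printed on all arrays (neighbours of Igkv6-23, the extremes of a role, a second Igkc probe set and those high in B5) fell outside that rule and were chosen after values were seen. From the lists, up to 4 genes past the threshold per list with the largest difference were named, otherwise the 2 with the largest statistic. Irf4, Pou2af1 and Vpreb1 were added for their roles after values were seen.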

Additional observations from a re-analysis of the deposited data

How the results depend on the processing

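Among 12 alternatives (11 for the hnRNP-F clones), the A20 calls of 93086_at, 93638_s_at and 99429_at kept their direction and their side of the threshold in all 12, that of Igkv6-23 (102156_f_at) in 10 and that of Jchain in 7. Of 174 values of named members under alternatives, 156 kept both, 7 no longer passed, 7 newly passed and 4 changed sign. The number of members called in A20, 5, was 3 without the intensity trend, 3 to 5 with an AxJ array left out, and 4 to 7 elsewhere. Over all probe sets, 623 were called in A20, but 369 without the filter, 154 without the trend, 1290 with the Gapdh class as a covariate, which leaves 1 residual degree of freedom, and 309 to 745 with an array left out. For the A20 calls, the split of 312 higher and 311 lower became 364 and 193 with equal medians, which moved the median of all probe sets from -0.14 to 0.07. That of the kappa members was -0.27, and 0.0036 with quantile normalisation. In the hnRNP-F clones the members called were 0, but 1 with the Gapdh class (Igkv6-23, adjusted p = 0.0118, high in B5 alone) and 0 to 1 with an array left out. Over all probe sets 1 was called there, 0 without the filter, 0 without the trend, 57 with the Gapdh class and 1 to 4 with an array left out. In the clones the sign of 93638_s_at turned with quantile normalisation (-0.057), and with an array left out it ran from -0.026 to 0.42. With an array left out 93086_at ran from -0.15 to 2.02 and Igkv6-23 from -0.18 to 4.59, the lowest of each without B5 and the highest without D6. The causes were not tested. No paired analysis was possible because the labels give no replicate numbers that groups share. Leaving out an array of a pair leaves 1 array there, assumed to vary like the others, and no array of A20 could be left out. Most members lie near the dim end, where differences are limited by the added constant.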
